A study of Homo sapiens with 38 samples.

Results

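The named Y RNA pseudogenes are genomic copies of the Y RNA genes that carry a symbol of their own. They were taken from a table of 22549 small RNA features as the Y RNA rows whose symbol is RNY followed by a digit, the letter P and a number. The rule found 51 members, of which 15 are copies of RNY1 (RNY1P), 14 of RNY3 (RNY3P) and 22 of RNY4 (RNY4P), and 0 rows carried an RNY5P symbol. The same table holds 3 parent rows, RNY1, RNY3 and RNY4, and 679 Y RNA copies without a symbol of their own. Each member was followed across 11 groups of libraries, as a level and as a percent of the count of its parent in the same library.

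The RNA was released into the medium by DiFi cells, a human colorectal cancer line, and was treated with AlkB enzymes, which take methyl groups off RNA bases, before small RNA libraries were made. All groups share that line and that treatment. Size-exclusion chromatography (FPLC) of medium from 3D culture, a hollow fibre bioreactor, gave supermeres and exomeres, small particles without a membrane, with 4 libraries each. Stepwise ultracentrifugation (UC) gave supermeres, exomeres and small extracellular vesicles (sEV) from the same 3D culture and from 2D culture on plates, with 3 libraries per fraction and culture. A density gradient over a cushion split 3D medium into pools named 12, 9_10 and 6_7, with 4 libraries each, and the labels do not tie a pool to a kind of particle. The plates had spent 48 h in serum-free medium, no such time is given for the bioreactor, and 3 pools of 2D medium and 4 of 3D medium were collected. Culture therefore cannot be told apart from medium pool and handling, and the 3D preparations may share pools. Nothing ties a library's letter to a pool, so p-values measure the spread between these libraries. All 11 groups held counts of all 7 intestinal epithelial miRNAs searched.

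Y RNAs are short transcripts of RNA polymerase III whose paired ends form a stem around an internal loop. The protein Ro60 binds the stem, the protein La binds the run of U at the end, and the RNAs are known for roles in RNA quality control and DNA replication. Y RNAs are cut into fragments in stressed and dying cells, and fragments from their 5′ ends are a familiar part of the RNA found outside cells. Most genomic copies arose by reverse transcription of the RNA and lack the promoter of the functional genes. Reads of a fragment that is identical in a parent and in its copies cannot be assigned to one of them by sequence. Of the members' nonzero values 90.9% were not whole numbers (tolerance 1e-06), against 27.8% of all nonzero values, so members are uncertain as single features. Counts of a pseudogene and of its parent cannot be told apart where they share a sequence, and none of the values shows that a pseudogene was transcribed.

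The members lie on 18 chromosomes, and 21 of the 51 lie on chromosome 13. By GENCODE 29, 33 lie inside introns only, 15 between genes, and 3 overlap an exon. Their counts were very uneven. RNY4P10 alone held 43.5% of all member counts, RNY4P10 with RNY4P7 held 84.5%, and those with RNY4P20 held 95.2%. At the other end, 12 members had fewer than 10 counts in all libraries together, 5 of them RNY1P and 7 RNY3P. The members' share of a library's counts was on average 8.13% in FPLC supermere and 7.53% in FPLC exomere, 18.8%, 27.8% and 5.27% in 3D UC supermere, exomere and sEV, and 1.24%, 2.01% and 3.14% in the same fractions of 2D UC. It was 0.108% in gradient pool 12, 3.92% in 9_10 and 0.711% in 6_7.

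The library 3D UC supermere A was near empty, with 46 counts, and is left out of all percents, means and fits relative to a parent. The fits of levels keep it. The other 37 libraries held between 81079 counts, in a library of pool 9_10, and 16991360, in a 2D UC sEV library. Levels are in CPM, counts divided by the library's total and multiplied by 1e6, and are not divided by length; the members are 89 to 126 bases long and the parents 96, 102 and 113. Fewer particles of a kind and less Y RNA per particle cannot be told apart in such libraries.

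The sequences of RNY4 and of its 3 most abundant copies are shown first because the copies' shared start sets them apart from the other RNY4P. They are read from GENCODE 29 (GRCh38), 5′ to 3′, and capitals mark bases that differ from or have no partner in RNY4.
RNY4: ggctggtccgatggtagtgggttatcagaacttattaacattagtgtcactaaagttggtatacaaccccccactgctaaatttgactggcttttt
RNY4P10: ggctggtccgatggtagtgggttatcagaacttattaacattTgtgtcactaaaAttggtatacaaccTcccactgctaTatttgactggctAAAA
RNY4P7: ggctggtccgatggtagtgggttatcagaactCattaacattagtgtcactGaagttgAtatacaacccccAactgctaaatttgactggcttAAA
RNY4P20: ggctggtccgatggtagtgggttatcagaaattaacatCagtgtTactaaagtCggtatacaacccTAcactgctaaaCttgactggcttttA

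RNY4 lies at chr7:148963315-148963410 on the plus strand. RNY4P10 lies at chr6:33199601-33199696 in an intron of RXRB, on the opposite strand to that gene. RNY4P7 lies at chr2:127798903-127798998 in an intron of WDR33, on the same strand, and RNY4P20 at chr6:151298841-151298933 in an intron of AKAP12, on the opposite strand. Counted from the 5′ end, RNY4P10 is identical to RNY4 for 42 bases, RNY4P7 for 32 and RNY4P20 for 30. The 30 bases that all of them share with RNY4, ggctggtccgatggtagtgggttatcagaa, occur in 0 of the other 19 RNY4P and in 1 of 756 unnamed Y RNA transcripts of GENCODE 29. After those bases, RNY4P20 lacks 3 that RNY4 has.

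RNY4P10 had nearly the count of RNY4 in every preparation except gradient pool 6_7. As a percent of RNY4 it was 98.1, 99.0, 97.5 and 98.8 in pool 12, and 53.8, 53.4, 56.9 and 54.3 in pool 6_7, with no overlap. Pool 9_10 stood between them in 1 library only, with 59.9% in library A against 95.5 to 98.6% in the other 3. In the UC and FPLC groups its range over libraries was 95.8 to 101%. Relative to RNY4 the difference between pool 12 and pool 6_7 was 0.85 ± 0.59 on the log2 scale (SE) and did not pass the test (edgeR quasi-likelihood test on counts scaled to RNY4, Benjamini-Hochberg adjusted p = 0.35). The fit estimates spread over the libraries of all groups and shares information on it across features. Its SE of 0.59 is far wider than the spread of these percents within either pool. In the fit of levels with TMM scaling the common biological coefficient of variation was 1.11.

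RNY4P7 had a count close to that of RNY4 in most groups, with lower values in pool 6_7 and 2D UC sEV. It stood at 87.9, 98.7, 92.3 and 94.6% of RNY4 in pool 12, and at 21.4, 20.6, 23.5 and 19.8% in pool 6_7. Relative to RNY4 it was higher in pool 12 than in pool 6_7, by 2.13 ± 0.61 on the log2 scale (SE; adjusted p = 0.0047), and this held without any 1 of the 8 libraries. Without the filter on low counts this call was lost. In 2D UC it stood at 99.3, 99.5 and 99.8% in supermere and 99.5, 99.7 and 99.9% in exomere, against 54.4, 51.8 and 50.9% in sEV. The groups do not overlap, yet the differences from sEV, 0.93 ± 0.68 for each fraction (log2, SE), did not pass, with adjusted p = 0.198 for the supermere and 0.231 for the exomere. In 3D UC sEV it was 90.5, 96.7 and 96.9% of RNY4.

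RNY4P20 was highest relative to RNY4 after FPLC. It stood at 99.8, 86.5, 97.7 and 99.8% of RNY4 in FPLC supermere and 86.0, 64.7, 87.7 and 91.4% in FPLC exomere, against 14.3, 13.5 and 8.75% in 3D UC exomere. Every FPLC library lay above every UC library, where the highest value was 29.2%. Relative to RNY4 it was higher in FPLC exomere than in 3D UC exomere, by 2.76 ± 0.77 (log2, SE, edgeR adjusted p = 0.00477). In that fit 55.0% of all features were higher, with a median over all features of 4.02, which is above the 2.76 of RNY4P20. In the gradient its ratio to RNY4 was higher in pool 12 than in pool 6_7, by 3.44 ± 0.71 (log2, SE, edgeR adjusted p = 0.000106). It stood at 7.33, 16.5, 35.7 and 46.3% in pool 12 against 2.33, 2.76, 2.41 and 2.29% in pool 6_7. RNY4 itself was far lower in pool 12, so a higher ratio is not a higher level. Both calls held without any 1 library. Between FPLC supermere and FPLC exomere its ratio did not pass (0.22 ± 0.64, log2, SE; adjusted p = 0.834).

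**Figure D1:**
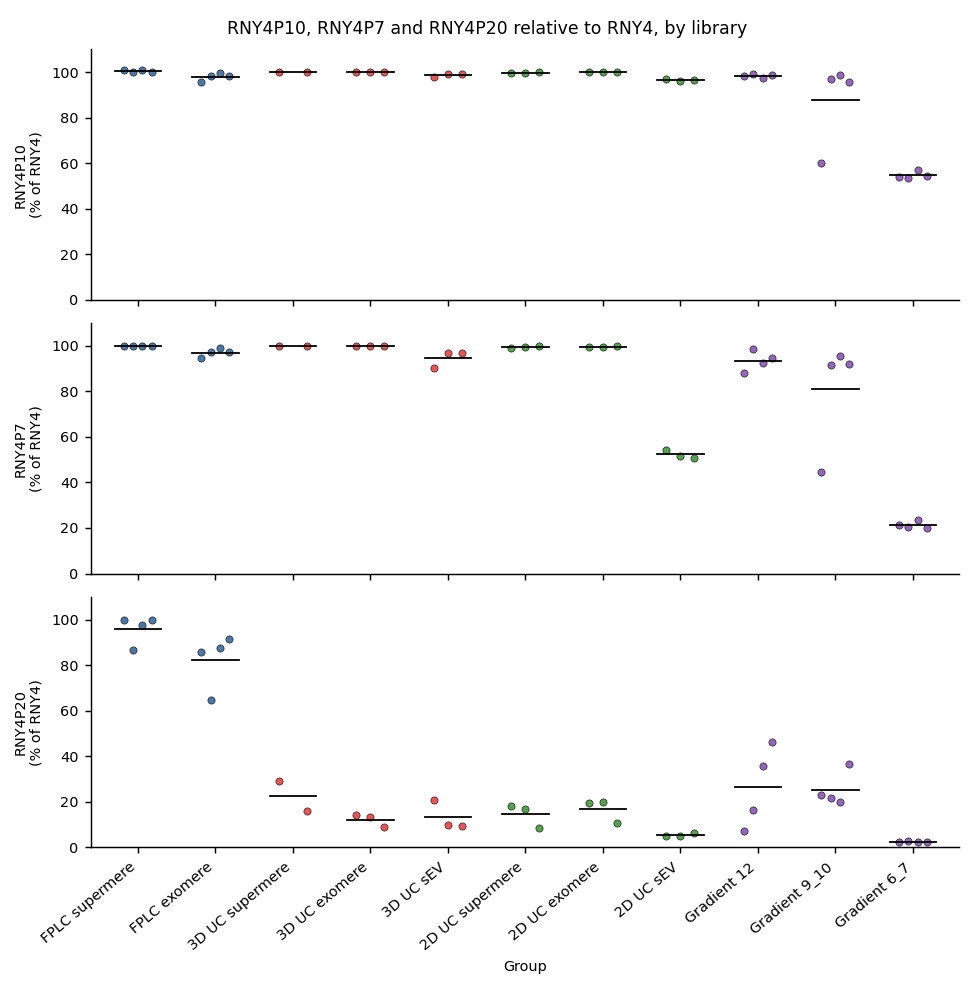
Counts of RNY4P10, RNY4P7 and RNY4P20 as percent of RNY4 (vertical axes) in each library of the 11 groups (horizontal axis). Points are libraries and horizontal lines are group means; the near-empty library is left out. RNY4P20 is at 64.7% or above in the 8 FPLC libraries and at 46.3% or below elsewhere, and RNY4P7 and RNY4P20 are lowest in pool 6_7.

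A further 8 RNY4P reached a count like that of RNY4 in 2 preparations only, 2D UC supermere and gradient pool 12. They are RNY4P27, RNY4P23, RNY4P9, RNY4P25, RNY4P6, RNY4P16, RNY4P29 and RNY4P30. They were grouped after their values were seen, by a mean of at least 50% of RNY4 in 2D UC supermere, so every comparison of these 8 with 2D UC supermere is given as a description, with no p-value. RNY4P25 and RNY4P6 fall outside the rule for named members and were also chosen after their values were seen. In 2D UC supermere the 8 means ran from 65.4% of RNY4 (RNY4P16) to 174% (RNY4P23), while the highest of the other 11 RNY4P outside the first group was RNY4P14 at 5.16%.

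RNY4P27 and RNY4P23 had the highest mean CPM of these 8 and are printed with RNY4P18, described further on, in the same notation.
RNY4P27: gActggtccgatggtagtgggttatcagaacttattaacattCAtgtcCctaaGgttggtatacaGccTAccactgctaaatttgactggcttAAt
RNY4P23: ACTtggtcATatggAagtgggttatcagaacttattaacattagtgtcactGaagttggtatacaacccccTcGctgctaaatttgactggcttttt
RNY4P18: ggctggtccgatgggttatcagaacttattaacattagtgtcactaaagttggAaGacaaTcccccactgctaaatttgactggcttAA

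RNY4P27 lies at chr13:95336106-95336201 between genes and RNY4P23 at chrX:70396279-70396375 in an intron of KIF4A, on the same strand. Each of the 8 copies differs from RNY4 before position 16, and they share 19 bases with it, positions 16 to 34, agtgggttatcagaactta. RNY4P10 also holds this stretch, the other 13 RNY4P do not, and 13 of the 756 unnamed Y RNA transcripts do. The map of differences shows RNY4P10, RNY4P7 and RNY4P20 free of differences over the first 30 positions, and the 8 free of differences from 16 to 34.

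**Figure D2:**
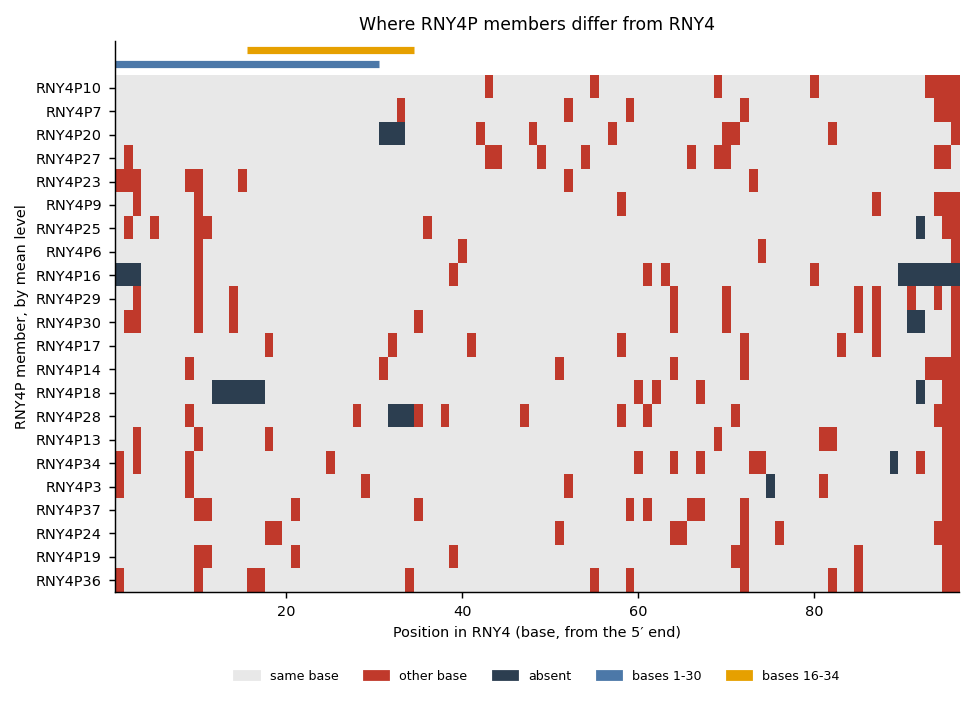
Positions of RNY4, counted from its 5′ end (horizontal axis, bases), at which each of the 22 RNY4P (rows) differs from RNY4 or lacks its base. RNY4P10, RNY4P7 and RNY4P20 have no mark over positions 1 to 30, and 9 RNY4P have none over positions 16 to 34.

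In 2D UC supermere, libraries A and B stood apart from library C. RNY4P23 was at 252, 234 and 35.1% of RNY4 in supermere libraries A, B and C, against 0.22, 0.31 and 0.297% in 2D UC sEV. RNY4P27 was at 86.5, 84.8 and 30.7% in supermere, against 0.989, 0.964 and 1.04% in sEV. In level RNY4P23 had 3911, 3453 and 371 CPM in supermere against 45.1, 56.0 and 56.3 CPM in sEV. RNY4 itself had 1552, 1478 and 1057 CPM in supermere against 20546, 18072 and 18982 CPM in sEV. The copies' levels were thus higher in supermere while the level of RNY4 was lower.

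Relative to RNY4, the fitted log2 difference between 2D UC supermere and sEV was 9.30 ± 1.29 for RNY4P23 and 6.08 ± 1.03 for RNY4P27 (SE). In this fit 13 of 19 RNY4P were past the threshold upward and 0 downward, with a median of 6.23, and so were 63.3% of all 7009 features, with a median of 4.83. As the 8 were chosen on this group, nothing is read from the count. The 13 are the 8 with RNY4P14, RNY4P28, RNY4P34, RNY4P13 and RNY4P3; RNY4P28 lost its call without any 1 of the sEV libraries, and RNY4P13 without sEV A or B. In 2D UC exomere RNY4P23 was at 15.8, 14.7 and 2.52% of RNY4, an increase of 5.32 ± 1.08 over sEV (log2, SE; adjusted p = 0.000371). In that comparison the same 8 copies and no other of the 19 were higher, against 3.89% of all features, while the medians were 2.78 for RNY4P and 3.13 for all features. RNY4P27 lost its call there without any 1 of the 6 libraries, and the other 7 kept theirs. The 8 share 19 bases with each other, and RNY4P29 and RNY4P30 had almost the same count. They are therefore not 8 separate results, and nothing is read from their number against the share of all features.

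Gradient pool 12 showed the 8 copies in the same position. RNY4P23 was at 77.7, 171, 69.6 and 62.3% of RNY4 in pool 12, against 1.08, 0.77, 0.317 and 0.447% in pool 6_7. RNY4P9 was at 65.2, 80.6, 39.9 and 31.3% in pool 12, against 0.751, 0.726, 0.361 and 0.406% in pool 6_7. RNY4 was scarce in pool 12, with 166, 83.9, 150 and 264 CPM, against 7724, 3132, 9490 and 9859 CPM in pool 6_7. Relative to RNY4, RNY4P23 was higher by 7.18 ± 1.02 (log2, SE; adjusted p = 2.28e-08). In all, 14 of 19 RNY4P were higher and 0 lower, with a median of 4.87, beside 34.1% of all features. This count holds the 8, which share 19 bases, so it is not one of 14 separate results. The median over all features was 0.00, and also 0.00 with TMM scaling and with library totals. As it did not move with the scaling, it is no baseline for the 4.87. All 14 calls held without any 1 library; the 14 are RNY4P7, RNY4P20, the 8, RNY4P17, RNY4P14, RNY4P34 and RNY4P3. RNY4P17 and RNY4P3 overlapped between the pools.

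In the remaining preparations the 8 copies were minor, with group means of at most 11% of RNY4. In 3D UC supermere RNY4P23 was at 0.667 and 0.0249%, against 252, 234 and 35.1% in 2D UC supermere. The fitted log2 difference relative to RNY4 was -8.97 ± 1.54 (SE) in supermere, 3D against 2D, given without a test. In exomere it was lower in the 3D culture (log2 difference -4.29 ± 1.03, SE; adjusted p = 0.000284). In supermere 14 of 19 RNY4P were past the threshold downward, with a median of -6.54, beside 91.3% of all features, with a median of -10.59; this count holds the 8 as well. In exomere 8 of 19 were lower, with a median of -2.65, while 90.5% of all features were lower, with a median of -7.82. RNY4 itself had 77775 and 84451 CPM in 3D UC supermere, against 1552, 1478 and 1057 CPM in 2D UC supermere. RNY4P9 lost its exomere call without 2D UC exomere A or B or 3D UC exomere A or B, and RNY4P14, RNY4P34 and RNY4P3 lost theirs in supermere without 3D UC supermere B, and RNY4P37 without 3D UC supermere C. In 3D against 2D sEV, 0 of 19 RNY4P passed relative to RNY4 in the same test.

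**Figure D3:**
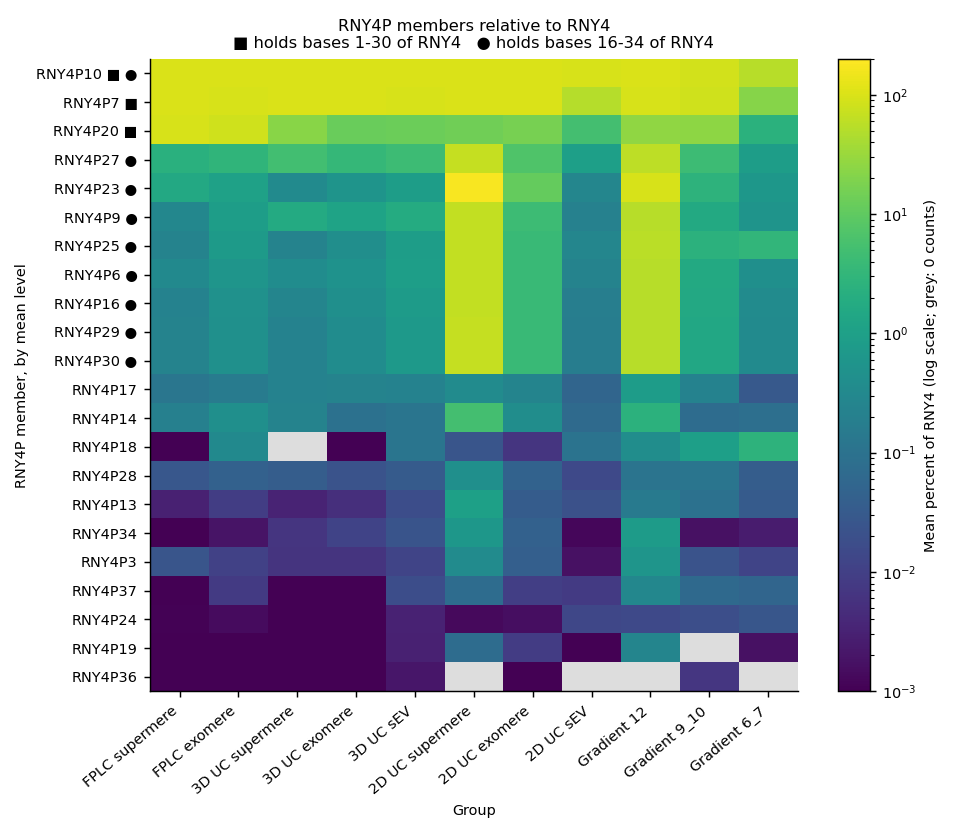
Group mean of each of the 22 RNY4P (rows) as percent of RNY4, on a log colour scale, in the 11 groups (columns). Marks beside the names show which copies hold bases 1 to 30 or 16 to 34 of RNY4; the second set is bright in 2D UC supermere and Gradient 12 and dim elsewhere.

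RNY4P29 and RNY4P30 had almost the same count. They share 60 bases that are not in RNY4, and RNY4P30 was within 1% of RNY4P29 in 34 of the 36 libraries with at least 10 counts of both. In 2D UC supermere RNY4P29 was at 90.0, 87.6 and 25.6% of RNY4 and at 0.163, 0.179 and 0.18% in 2D UC sEV. RNY4P16, RNY4P25 and RNY4P6 gave values close to each other in 2D UC supermere, with 86.3, 86.4 and 86.3% in library A and 25.5, 25.5 and 25.6% in library C.

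The summed RNY4P count was 302% ± 5.2 of RNY4 in FPLC supermere and 286% ± 9.29 in FPLC exomere (SD, n = 4 each). It was 232% in 3D UC supermere (n = 2), 220% ± 2.65 in 3D UC exomere and 218% ± 0.631 in 3D UC sEV (SD, n = 3 each). In 2D UC it was 860% ± 372 in supermere, 259% ± 19 in exomere and 157% ± 1.66 in sEV (SD, n = 3 each). In the gradient it was 702% ± 191 in pool 12, 213% ± 30.2 in pool 9_10 and 88.1% ± 2.25 in pool 6_7 (SD, n = 4 each). Pool 12 and 2D UC supermere therefore had both the highest sums and the widest spread between libraries.

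RNY4P18 went the other way from the 8. It lies at chr9:111097325-111097413 between genes, and in the alignment it lacks positions 12 to 17 of RNY4, so it holds neither of the shared stretches. It was highest in gradient pool 6_7, with 242, 91.2, 202 and 264 CPM, against 2.05, 0, 0 and 0.856 CPM in pool 12. In the 3D culture it had 126, 96.5, 33.2 and 58.9 CPM in FPLC exomere, against 0.207, 0.169 and 0.179 CPM in 3D UC exomere. The 3D UC sEV held 23.5, 17.1 and 20.2 CPM, and the 2 usable 3D UC supermere libraries held 0 counts, where 3 counts over the group would be 0.483 CPM. FPLC supermere held 0.00772, 0.0913, 0.184 and 0.609 CPM.

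Relative to RNY4, RNY4P18 was higher in FPLC exomere than in 3D UC exomere by 10.42 ± 1.66 (log2, SE; adjusted p = 1.86e-06), where 2 of 19 RNY4P, with RNY4P20, were higher against 55.0% of all features. It was lower in FPLC supermere than in FPLC exomere (log2 difference -9.16 ± 1.46, SE; adjusted p = 7.43e-07), where 2 of 19 were lower, with RNY4P25, against 55.2% of all features. The RNY4P25 call was lost without FPLC exomere B or FPLC supermere A, C or D, and with the replicate letter in the fit. In 3D UC, RNY4P18 was the 1 of 19 RNY4P that was lower in exomere than in sEV (log2 difference -8.94 ± 1.58, SE; adjusted p = 9.49e-06), against 30.5% of all features. It was also the 1 of 19 lower in supermere than in sEV (adjusted p = 0.000237), against 12.6% of all features; as all supermere counts were 0, no fold is given. In 2D UC its ratio was lower in exomere than in sEV (log2 difference -3.92 ± 1.3, SE), which did not pass (adjusted p = 0.052).

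**Figure D4:**
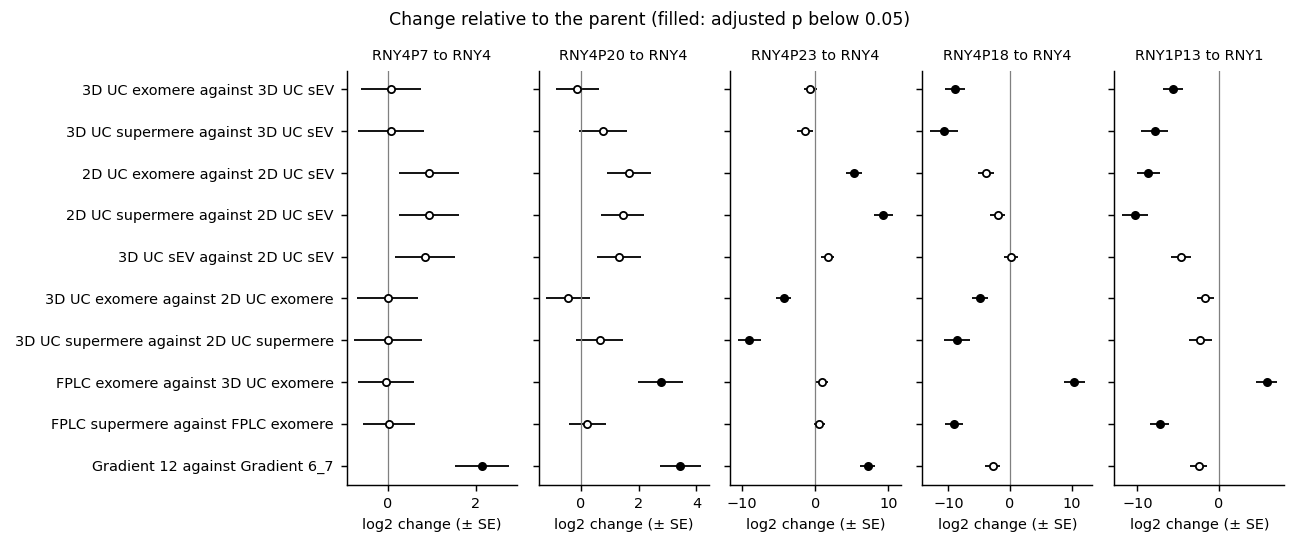
Log2 change relative to the parent, with its SE, of RNY4P7, RNY4P20, RNY4P23, RNY4P18 and RNY1P13 in the 10 comparisons, each named as first group against second. RNY4P23 is above 5 in both 2D UC comparisons with sEV and in Gradient 12 against Gradient 6_7, while RNY4P18 and RNY1P13 are below 0 there. Filled points were past the threshold; for RNY4P23 the 2 comparisons with 2D UC supermere are a description.

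The RNY1P had far smaller counts than their parent. RNY1 is printed with its most abundant copies, RNY1P13 and RNY1P12, because they share the 3′ part of RNY1, not its 5′ end. Capitals mark bases that differ from or have no partner in RNY1.
RNY1: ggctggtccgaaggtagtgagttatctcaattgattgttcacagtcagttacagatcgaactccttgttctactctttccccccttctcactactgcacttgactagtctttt
RNY1P13: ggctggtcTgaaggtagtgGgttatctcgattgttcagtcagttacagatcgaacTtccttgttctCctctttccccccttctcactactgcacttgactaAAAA
RNY1P12: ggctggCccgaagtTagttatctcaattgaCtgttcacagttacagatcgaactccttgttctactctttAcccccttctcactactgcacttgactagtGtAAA

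RNY1 lies at chr7:148987136-148987248. RNY1P12 lies at chr3:101662060-101662164 in an intron of ZBTB11, on the same strand. RNY1P13, RNY1P12 and RNY1P7 share 23 bases with RNY1, positions 84 to 106, cttctcactactgcacttgacta. These bases occur in 0 of the other 12 RNY1P and in 34 of the 756 unnamed transcripts. From the 5′ end RNY1P13 is identical to RNY1 for 8 bases, RNY1P12 for 6 and RNY1P7 for 8.

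Relative to RNY1, RNY1P13 was lower in UC supermere and UC exomere than in the sEV of the same culture. It stood at 0.00258, 0.00171 and 0.00119% of RNY1 in 2D UC supermere and 0.00878, 0.00511 and 0.00303% in exomere, against 2.86, 2.79 and 1.22% in sEV. In 3D UC it stood at 0.000213 and 0.00047% in supermere and 0.00235, 0.00116 and 0.00176% in exomere, against 0.111, 0.0686 and 0.0899% in sEV. The sEV libraries of each culture lay above all exomere and supermere libraries of that culture. Relative to RNY1 it was lower than in 2D UC sEV, both in supermere (log2 difference -10.31 ± 1.57, SE; adjusted p = 1.3e-06) and in exomere (log2 difference -8.66 ± 1.43, SE; adjusted p = 9.87e-06). In 3D UC it was also lower than in sEV, in supermere (log2 difference -7.90 ± 1.67, SE; adjusted p = 0.000255) and in exomere (log2 difference -5.66 ± 1.25, SE; adjusted p = 0.000796). These 4 calls held without any 1 library.

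FPLC exomere was unlike UC exomere in this copy. RNY1P13 stood at 0.0382, 0.237, 0.0452 and 0.0918% of RNY1 in FPLC exomere, against 0.00235, 0.00116 and 0.00176% in 3D UC exomere (5.86 ± 1.24 higher, log2, SE; adjusted p = 0.000392). FPLC supermere held 0.000503 to 0.000927%, lower than FPLC exomere (log2 difference -7.25 ± 1.19, SE; adjusted p = 8.08e-07). In the gradient it stood at 2.67, 0.178, 0.914 and 0.519% in pool 12, against 7.33, 5.35, 4.96 and 6.2% in pool 6_7, which did not pass (log2 difference -2.46 ± 1.05, SE; adjusted p = 0.0651). The summed level of the 7 intestinal epithelial miRNAs was also lower in UC exomere and supermere than in sEV: 3434 to 3809 CPM in 2D UC supermere, 6632 to 14353 in exomere and 87389 to 123689 in sEV, with counts for 7 of 7. In the 3D culture it was 55.3 to 501 CPM in FPLC supermere and 15142 to 110307 in FPLC exomere, and 96.4 to 1005 in UC supermere, 1557 to 3925 in UC exomere and 50327 to 98723 in UC sEV. The summed level of 7 blood miRNAs moved with it: 5.84 to 15.6 CPM in 2D UC supermere (6 of 7 with counts), 29.2 to 78 in exomere and 894 to 1310 in sEV (7 of 7 each). In 3D it was 1.21 to 10.1 CPM in UC supermere and 4.26 to 27.5 in UC exomere (3 of 7 each), 488 to 845 in UC sEV (7 of 7), 0.0772 to 5.41 in FPLC supermere (5 of 7) and 57.6 to 665 in FPLC exomere (6 of 7). The liver miRNA searched, miR-122-5p, had 6.96 to 56 CPM in 2D UC supermere and 3.25 to 11.9 in 2D UC sEV. The sum of 6 mesenchymal and muscle miRNAs was 12.6 to 26.1 CPM in 2D UC supermere and 8.89 to 13.5 in sEV. Neither was lower in that supermere. In 3D UC the mesenchymal and muscle sum was lower in supermere, 9.17 to 21 against 21.3 to 51.1 in sEV, and the liver miRNA overlapped. The part of these miRNAs in the result was not tested.

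RNY1P12 and RNY1P7 were also lower than in sEV, but in 2D UC their supermere and exomere values overlapped, unlike those of RNY1P13. Over the 2D UC supermere libraries they had only 4.5 and 4.3 counts. RNY1P12 was at 0.00258, 0.0022 and 0.000742% of RNY1 in 2D UC supermere and 0.00184, 0.00178 and 0.00248% in exomere, against 0.697, 0.772 and 0.378% in sEV. RNY1P7 was at 0.00235, 0.00147 and 0.000801% in supermere and 0.00124, 0.00239 and 0.00155% in exomere, against 0.42, 0.461 and 0.17% in sEV. Both lay below sEV in every exomere and supermere library, and both passed in these 2 comparisons. Of the 7 RNY1P tested, RNY1P13, RNY1P12 and RNY1P7 were lower relative to RNY1 in 2D UC supermere, against 3.60% of all features, and with RNY1P14 4 of 7 in 2D UC exomere, against 3.98%. RNY1P14 lost its call without 2D UC sEV A or any 1 exomere library. It had counts in 19 of the 38 libraries and was chosen after its values were seen, so nothing is read from its call. The medians over the 7 were -7.71 and -7.70, and over all features 3.12 and 1.32, for supermere and exomere.

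In 3D UC the same 3 of 7 were lower than in sEV, in supermere against 14.3% of all features and in exomere against 10.8%. RNY1P7 lost its supermere call without 3D UC supermere C, and RNY1P12 and RNY1P7 their exomere calls without 3D UC exomere A or B. In FPLC exomere against 3D UC exomere these 3 and RNY1P1 made 4 of 7 higher, against 39.0% of all features, and RNY1P1 lost its call without any 1 of the 3D UC exomere libraries, without FPLC exomere D and with the replicate letter in the fit. In FPLC supermere against exomere 3 of 7 were lower, against 57.5% of all features. In 3D against 2D UC supermere RNY1P12, RNY1P7 and RNY1P14 were lower, 3 of 7 against 89.0% of all features, and each lost its call without 3D UC supermere C. RNY1P12 also lost it without 3D UC supermere B or 2D UC supermere A or B, and RNY1P14 without either supermere B library. Over the usable 3D UC supermere libraries RNY1P12 had 2.7 counts and RNY1P7 1.4, against 4.5 and 4.3 in 2D UC supermere. RNY1P14 had 0 counts in 3D UC supermere. The mean of RNY1 was 486376 CPM in 3D UC supermere and 15412 in 2D UC supermere, so nothing about these copies is read from the 3 calls. In 3D against 2D sEV, in 3D against 2D exomere and in pool 12 against pool 6_7, 0 of 7 passed. In sEV the lowest adjusted p of the 7 was 0.0503 (edgeR), for RNY1P13 (log2 difference -4.67 ± 1.19, SE).

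**Figure D5:**
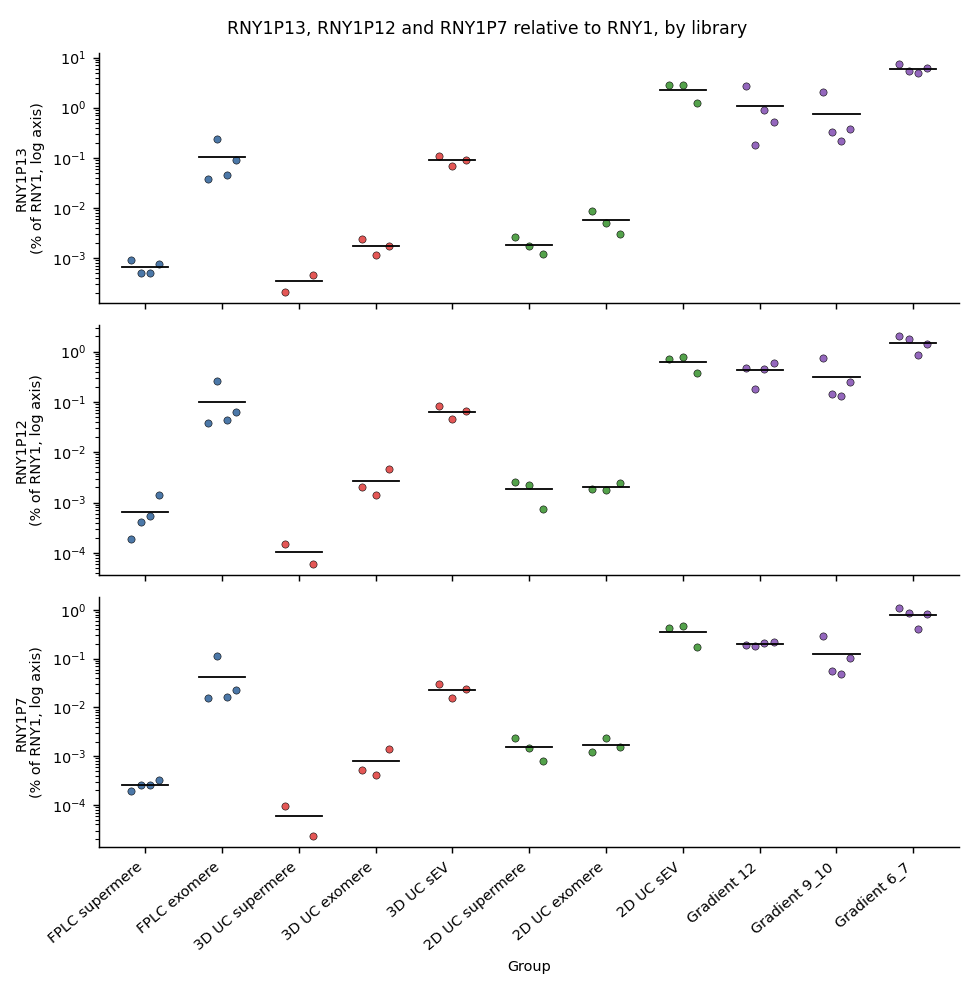
Counts of RNY1P13, RNY1P12 and RNY1P7 as percent of RNY1 (vertical axes, log scale) in each library of the 11 groups (horizontal axis); horizontal lines are group means and the near-empty library is left out. The 3 sEV libraries of each culture lie above the UC exomere and supermere libraries of that culture in all panels.

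RNY1P5 and RNY1P9 were the next of the RNY1P by mean CPM. RNY1P5, with 0.00591 to 0.0115% of RNY1 in 2D UC sEV and 0.00173 to 0.00425% in 2D UC exomere, passed in 0 of 10 comparisons relative to RNY1. The summed RNY1P count was 0.0173%, 0.0142% and 3.31% of RNY1 in 2D UC supermere, exomere and sEV, and 0.00362%, 0.00778% and 0.189% in 3D UC. It was 0.0186% ± 0.0108 in FPLC supermere, 0.280% ± 0.249 in FPLC exomere, and 2.11% ± 1.08, 1.34% ± 1.29 and 8.58% ± 1.75 in pools 12, 9_10 and 6_7 (SD, n = 4 each). One library decided 3 of these means: without the highest, FPLC exomere B, Gradient 9_10 A or 2D UC supermere B, they were 0.158%, 0.693% and 0.00983%.

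The levels of the RNY3P were low where that of RNY3 was low. RNY3P2 lies on chromosome 13 in an intron of FNDC3A, on the same strand, and RNY3P8 on chromosome 13 between genes. With RNY3P1 they share 26 bases with RNY3, positions 70 to 95, which 0 of the other 11 RNY3P hold and 31 of the 756 unnamed transcripts do. Identity to RNY3 was 87.3% for RNY3P2, 64.3% for RNY3P8 and 96.1% for RNY3P1, the last being the highest of all 51 members. RNY3P2 and RNY3P8 share 34 bases that are not in RNY3 and were within 1% of each other in 9 of the 12 libraries with at least 10 counts of both.

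In level RNY3P2 was highest in 2D UC sEV and in pool 6_7, with lower means of 9.27 CPM in FPLC exomere, 8.39 in pool 9_10 and 4.84 in 3D UC sEV. RNY3P2 had 0.0201, 0 and 0.00859 CPM in 2D UC supermere and 0.0297, 0 and 0.0607 CPM in exomere, against 37.9, 26.3 and 20.1 CPM in sEV. Its parent RNY3 had 14.4, 5.43 and 4.48 CPM in supermere and 13.8, 20.6 and 7.58 CPM in exomere, against 1577, 1236 and 1438 CPM in sEV. In pool 12 RNY3P2 had 0.0976, 0, 0.225 and 0.0504 CPM, against 23.2, 6.66, 21.7 and 23.2 CPM in pool 6_7. RNY3P1 had 0 counts in all 3 libraries of 2D UC supermere, where 3 counts over the group would be 0.141 CPM, and 16.3, 13.6 and 9.87 CPM in 2D UC sEV.

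Relative to RNY3, 0 of the 3 RNY3P tested passed in any of the 10 comparisons (edgeR); 1 of the 30 tests had an unadjusted p under 0.05, RNY3P1 in 3D against 2D UC exomere (unadjusted p = 0.0109, edgeR; adjusted p = 0.0558). Across these fits between 0 and 92.5% of all features were called in a direction. The 3 RNY3P were not shown to differ from their parent, and the counts behind a ratio were very uneven: RNY3 had 16.5 counts in all of pool 12, 37 in FPLC supermere and 26.1 in 3D UC supermere, against 1383 in FPLC exomere, 1957 in 3D UC sEV, 3024 in pool 6_7 and 54780 in 2D UC sEV. The summed RNY3P count was 6.37% ± 4.75, 1.85% ± 1.33 and 4.92% ± 1.22 of RNY3 in 2D UC supermere, exomere and sEV (SD, n = 3 each). In 2D UC supermere RNY3P8 held 7.2 of the 7.4 summed counts and RNY3P2 held 0.2, so the pair parted there. In 3D UC the summed RNY3P count was 7.81% in supermere (n = 2), 16.9% ± 10.9 in exomere and 8.14% ± 3.11 in sEV (SD, n = 3 each). It was 13.4% ± 22.7 in FPLC supermere, 25.9% ± 22.8 in FPLC exomere, and 9.46% ± 12.7, 10.8% ± 7.12 and 14.6% ± 1.71 in pools 12, 9_10 and 6_7 (SD, n = 4 each). Without the highest library the means were 3.65% in 2D UC supermere (B), 1.17% in 2D UC exomere (B), 10.8% in 3D UC exomere (A), 2.11% in FPLC supermere (D), 14.9% in FPLC exomere (B) and 3.23% in pool 12 (C), and the 1 library left in 3D UC supermere held 0. RNY3P5 and RNY3P13, the next by mean CPM, had 0 counts in 2D UC supermere and in pool 12, and at most 3.06 and 1.23 CPM in any library.

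Levels were also compared with TMM scaling, which assumes that most features do not change. Its factors ran from 0.0551 to 13.5, so levels depended on the scaling. Each count over the 29 members tested is followed by the counts with library totals, RLE scaling and DESeq2, in that order. The shares of all features beside them are those with TMM scaling only. RLE scaling and DESeq2 take their factors from features with counts in every library, the near-empty one included. Of the 7009 features 11 had such counts, so both alternatives rest on few features. With RLE scaling 5708 of 7009 features were lower in 3D against 2D supermere, and with library totals 4027 in FPLC supermere against exomere. The bracketed counts therefore cannot be read against the printed shares. Several comparisons share a group: the sEV of each culture is set against 2 fractions and the other culture, and FPLC exomere enters 2.

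In 2D UC supermere against sEV, 8 members were higher and 12 lower (8 and 11, 10 and 6, 11 and 8), against 1.93% and 8.45% of all features. Those higher were RNY4P, led by RNY4P34 (log2 change 4.82 ± 1.41, SE; adjusted p = 0.00811); RNY4P23 and RNY4P30, of the 8 chosen on this group, had log2 changes of 4.26 ± 0.96 and 3.75 ± 0.97. The call of RNY4P34 was lost without sEV A or C or supermere C and with library totals. The largest decreases were RNY1P13 (-11.84 ± 1.44; adjusted p = 1.11e-13), RNY1P12 (-10.58 ± 1.46; adjusted p = 5.27e-11) and RNY3P2 (adjusted p = 2.04e-07). No fold is given here or further on for a copy with fewer than 3 counts in one of the groups, as for RNY3P2 in this supermere, since its fitted value depends on the constant added to the counts. In 2D UC exomere against sEV, 0 were higher and 10 lower (6 and 8, 7 and 8, 9 and 7), against 0.628% and 7.95%. RNY1P13 fell (log2 change -9.91 ± 1.32, SE; adjusted p = 4.29e-11), and RNY3P2 (adjusted p = 2.02e-07) and RNY3P1 (adjusted p = 8.16e-07) fell as well.

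In 3D UC exomere against sEV, 3 members were higher and 6 lower (3 and 4, 3 and 3, 4 and 6), against 0.271% and 9.79% of all features. The 3 were RNY4P20 (2.77 ± 0.80, log2, SE; adjusted p = 0.00903), RNY4P7 (2.66 ± 0.78; adjusted p = 0.0102) and RNY4P10 (2.62 ± 0.78; adjusted p = 0.0117), and each lost its call without sEV A or exomere B. In supermere against sEV 2 were higher and 7 lower (1 and 4, 0 and 7, 3 and 4), against 0.442% and 7.33%. The 2 were RNY4P14 (3.54 ± 1.04; adjusted p = 0.0133) and RNY4P20 (2.63 ± 0.80; adjusted p = 0.0176), and both calls were lost without any 1 of the sEV libraries or without supermere C. RNY1P12 (adjusted p = 0.000571) and RNY4P18 (adjusted p = 0.000423) were lower and lost their calls without supermere B or C, and RNY3P1 (adjusted p = 0.0438) lost its call without any 1 library. Without an sEV library 0 members were higher and 4 lower. These fits of levels keep the near-empty supermere A. Without supermere B or C it is left with 1 usable library, so no counts are given for those fits.

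Between cultures the direction depended on the scaling. With TMM scaling, in exomere, 20 members were higher in 3D and 0 lower (6 and 0, 4 and 0, 4 and 0), against 5.12% and 3.48% of all features. RNY4P10 had 125823, 141552 and 112855 CPM in 3D UC exomere, against 7155, 7650 and 8591 CPM in 2D UC exomere (6.56 ± 0.93, log2, SE; adjusted p = 3.43e-09), and RNY4P17 had 267, 275 and 353 CPM in 3D UC, against 19.7, 14.1 and 23.3 CPM in 2D UC (6.42 ± 1.15; adjusted p = 7.18e-06). Without 2D UC exomere A or B 10 were higher, and without 3D UC exomere A 13. In supermere 10 were higher and 0 lower (5 and 1, 3 and 11, 5 and 6), against 1.91% and 1.28%, and 4 and 0 without 3D UC supermere C. RNY4P20 had the largest change there (8.18 ± 1.03; adjusted p = 1.1e-11). In sEV 9 were higher and 0 lower (1 and 0, 0 and 0, 2 and 2), against 2.91% and 0.0428%. RNY4P9, with 98.1, 681 and 711 CPM in 3D UC sEV against 39.3, 39.7 and 42.7 CPM in 2D UC sEV, was higher by 4.51 ± 0.97 (adjusted p = 0.000442). RNY4P16 (3.34 ± 0.95; adjusted p = 0.0221) and RNY4P17 (3.32 ± 0.99; adjusted p = 0.0334) lost their calls without 2D UC sEV A, B or C or 3D UC sEV B or C. Without 2D UC sEV A or C 1 member was higher, and without 2D UC sEV B or 3D UC sEV B or C 2 were. RNY4P9 lost its call with RLE scaling. Of the calls higher in 3D, 8 in exomere and 5 in supermere changed sign under RLE scaling, RNY4P23 and RNY1P13 in exomere among them. As that scaling rests on 11 features, the changes of sign are given as a description. Relative to the parent, 0 members were higher in 3D, and 8 in exomere and 17 in supermere were lower. Of all features 90.5% were lower in exomere scaled to RNY4. In supermere 91.3% were lower scaled to RNY4 and 89.0% scaled to RNY1. The 17 hold the copies chosen on 2D UC supermere, so nothing about the members is read from these counts.

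In FPLC exomere against 3D UC exomere, 5 members were higher and 12 lower (6 and 6, 2 and 7, 6 and 10), against 6.23% and 3.17% of all features. RNY4P18 (7.21 ± 1.28, log2, SE; adjusted p = 1.04e-05) and the pair RNY3P2 (4.5 ± 1.4; adjusted p = 0.0245) and RNY3P8 (4.49 ± 1.4; adjusted p = 0.025) led those higher. The pair lost its calls without 3D UC exomere A, B or C or FPLC exomere B, which held 24.9 CPM of RNY3P2 against 2.47 to 5.23 CPM in the other 3. The largest decreases were RNY4P34 (-5.67 ± 1.33; adjusted p = 0.00186), RNY4P17 (-4.09 ± 0.92; adjusted p = 0.000854) and RNY4P9 (-3.61 ± 0.83; adjusted p = 0.0012), of which RNY4P34 and RNY4P9 lost their calls without 3D UC exomere C. Without 3D UC exomere A, B or C, 1 member was higher, and 8, 10 or 9 were lower.

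In FPLC supermere against FPLC exomere, 7 members were higher and 7 lower (0 and 7, 0 and 8, 0 and 9), against 2.34% and 6.69% of all features. RNY3P2 (adjusted p = 0.00467) and RNY3P8 (adjusted p = 0.00477) led those lower, and RNY3P1 (adjusted p = 0.014) lost its call without FPLC exomere B or FPLC supermere C. In pool 12 against pool 6_7, 4 were higher and 11 lower (0 and 12, 7 and 8, 7 and 9), against 2.91% and 7.02%. The increases of RNY4P30 (2.33 ± 0.80; adjusted p = 0.0396), RNY4P29 (2.32 ± 0.80; adjusted p = 0.0401) and RNY4P16 (2.29 ± 0.80; adjusted p = 0.0428) were lost without any 1 of the pool 6_7 libraries and with library totals. The decreases were led by RNY3P8 (adjusted p = 0.000103), RNY3P2 (adjusted p = 0.000103) and RNY3P1 (adjusted p = 0.000384).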

How the data were processed

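Small RNA libraries were made from AlkB-treated RNA of 38 preparations. The authors deposited 1 table of expected counts (estimated counts that need not be whole); per the submitters' processing notes cutadapt 4.5, FastQC 0.12.1, Bowtie 1.3.1 and GRCh38.p13 were used. The counting tool, its annotation and its handling of reads with several matches are not given in the sources used here. Dividing a read among matching copies would tie the members' counts to each other.

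Counts were rounded to whole numbers and fitted in edgeR 4.0.16 (R 4.3.3; quasi-likelihood, robust) over all 38 libraries with 11 group means, after a filter with a minimum count of 10 that kept 7009 features and 29 members (7 RNY1P, 3 RNY3P and 19 RNY4P). Levels used TMM scaling. Ratios used the parent's count as library size, over 37 libraries. P-values were Benjamini-Hochberg adjusted over all 7009 features, with a threshold of 0.05. DESeq2 1.42.0, other scalings, no filter, a replicate block and leaving out each library were alternatives. Floors are 3 counts over a group and cover counting error only.

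The table name holds 2 project numbers, and which libraries belong to which is not known here. Sequences were aligned to their parent with Biopython 1.88 (GENCODE 29, GRCh38; all 51 members had the same coordinates there). The script was tested on simulated data. Letters shared between groups did not pair the libraries: correlations of same-letter deviations ran from -0.11 to 0.15. Members and lists were chosen with earlier results of these data known. Named members are the 5 highest by mean CPM among each parent's copies, and in each comparison up to 3 per direction with the largest change, if called, without overlap between the groups, and averaging 5 CPM or more in the higher group; chosen after their values were seen were RNY4P3, RNY4P6, RNY4P13, RNY4P25, RNY4P28, RNY4P37, RNY1P1 and RNY1P14. Some sequences and positions are not reported here.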

Additional observations from a re-analysis of the deposited data

Results flagged for a closer look

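Dixon's test was run on the percent of the parent in 110 groups of 4 libraries, and 16 held a library far from the other 3. By chance about 1 in 20 would. Where the other 3 libraries hold 0, any count is flagged, as for RNY1P9 below. Some flags also rest on few counts, so the 16 are not weighed against chance. Gradient 9_10 A held 5 of the 16. In that library RNY4P10 was at 59.9% of RNY4 (95.5 to 98.6% in the other 3), RNY4P7 at 44.5% (91.4 to 95.5%), RNY1P13 at 2.05% of RNY1 (0.22 to 0.383%), RNY1P5 at 0.0626% (0.00314 to 0.00599%) and RNY3P5 at 2.48% of RNY3 (0 to 0.351%). RNY3P5 had 1.7 counts over all 4 libraries of pool 9_10. FPLC exomere B held 3: RNY1P12 at 0.263% of RNY1 (0.0382 to 0.0615%), RNY1P7 at 0.115% (0.0155 to 0.0227%) and RNY1P9 at 0.000293% (0 in the others).

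FPLC supermere D had RNY3P2 and RNY3P8 at 21.1% of RNY3 (0 to 1.87%), RNY1P5 at 0.0181% of RNY1 (0.00828 to 0.00954%) and RNY4P7 at 99.9% of RNY4, where the others rounded to 100%. RNY3P2 and RNY3P8 each had 0.7 counts over all 4 FPLC supermere libraries, so nothing is read from their percents there. RNY4P20 was at 86.5% in FPLC supermere B (97.7 to 99.8%), RNY1P9 at 3.92e-05% of RNY1 in FPLC supermere C (0 in the others), RNY4P14 at 1.21% in FPLC exomere A (0.134 to 0.204%) and RNY4P23 at 171% in Gradient 12 B (62.3 to 77.7%).

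The change of a fraction against sEV, relative to RNY4, was compared between the 3D and the 2D culture in an interaction contrast added after seeing the data (edgeR). Of 19 RNY4P, 11 passed in exomere, where 53.1% of all features passed, and 14 in supermere, where 63.4% did. All of these RNY4P were lower in 3D. As most features passed, nothing particular to the copies is read from these counts. The differences for exomere, 3D minus 2D on the log2 scale, were -3.16 for RNY4P27, -5.98 for RNY4P23, -5.00 for RNY4P9, -5.33 for RNY4P16, -5.45 for RNY4P29, -5.46 for RNY4P30, -5.02 for RNY4P18 and -6.14 for RNY4P34. The supermere contrast holds the group on which 8 of the copies were chosen, so its values are a description for RNY4P27, RNY4P23, RNY4P9, RNY4P16, RNY4P29 and RNY4P30. For supermere they were -5.90 for RNY4P27, -10.66 for RNY4P23, -8.34 for RNY4P9, -10.17 for RNY4P16, -10.35 for RNY4P29, -10.36 for RNY4P30, -5.23 for RNY4P14 and -10.75 for RNY4P34. RNY4P18 gave -8.71 there, a fitted value that depends on the constant added, as its 3D UC supermere counts were 0. With TMM scaling 5 members were higher in 3D in exomere and 4 in supermere, so the direction depends on the scaling. Culture cannot be told apart from medium pool and handling.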

How the results depend on the processing

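Of 86 changes relative to a parent, 69 were kept without any 1 library, 2 were lost with a replicate block and 13 without the filter on low counts. Of 133 level calls, 54 were lost with library totals and 15 changed sign under RLE scaling or library totals: 8 in 3D against 2D exomere, 5 in 3D against 2D supermere, and RNY4P27 and RNY4P17 in FPLC supermere against exomere. RNY4P23 in 3D against 2D exomere changed sign under both. The replicate block gave 15 members called in Gradient 12 against 6_7, as without it, and moved no count by over 1.5 times; as the letters do not pair the libraries, this is no test of pairing. Counts of members called that moved were as follows (higher and lower in brackets). RLE scaling gave 0 in 3D against 2D sEV (main 9), 4 in 3D against 2D exomere (4/0; main 20), 9 in FPLC against 3D UC exomere (2/7; main 17) and 8 in FPLC supermere against exomere (0/8; main 14). Library totals gave 5 in 3D UC supermere against sEV (1/4; main 9), 1 in 3D against 2D sEV, 6 in 3D against 2D exomere (6/0), 6 in 3D against 2D supermere (5/1; main 10) and 7 in FPLC supermere against exomere (0/7). Without the filter there were 5 in 3D UC exomere against sEV (3/2; main 9), 3 in 3D UC supermere against sEV (0/3), 2 in 3D against 2D sEV (2/0), 6 in 3D against 2D exomere (6/0), 5 in 3D against 2D supermere (5/0) and 11 in FPLC against 3D UC exomere (1/10); relative to the parent, 2 in 3D UC exomere against sEV (0/2; main 4). RLE without the near-empty library, added after seeing the data, gave 14 in 3D UC exomere against sEV (13/1), 2 in 3D against 2D sEV (1/1) and 12 in 3D against 2D exomere (12/0). DESeq2 gave 16 in 2D UC exomere against sEV (9/7; main 10), 4 in 3D against 2D sEV (2/2), 4 in 3D against 2D exomere (4/0) and 9 in FPLC supermere against exomere (0/9). With RLE scaling 16 of all 7009 features were higher and 5708 lower in 3D against 2D supermere. Where totals moved little the split still turned in 3D against 2D supermere (main 10/0): 5/6 with DESeq2 and 3/11 with RLE. It turned as well with RLE without the near-empty library in 3D UC supermere against sEV (12/0; main 2/7). With the near-empty library kept, RLE scaling and DESeq2 rest on 11 features. The cause of these turns was not tested.

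Leaving out 1 library gave 8 to 10 members called in 2D UC exomere against sEV, 16 to 20 in 2D UC supermere against sEV, 2 to 9 in 3D UC exomere against sEV, 1 to 7 in 3D UC supermere against sEV, 1 to 8 in 3D against 2D sEV, 10 to 18 in 3D against 2D exomere, 4 to 10 in 3D against 2D supermere, 9 to 19 in FPLC against 3D UC exomere, 11 to 16 in FPLC supermere against exomere and 10 to 14 in Gradient 12 against 6_7. Relative to the parent the counts were 10 to 11, 14 to 16, 2 to 4, 3 to 5, 0 to 0, 7 to 11, 12 to 17, 5 to 7, 4 to 6 and 14 to 16 in the same order; the lowest of 2 to 4, in 3D UC exomere against sEV, came without 3D UC exomere A or B. Few counts limit the RNY3P in UC exomere and supermere, FPLC supermere and pool 12. The same holds for RNY1P12 and RNY1P7 in 2D and 3D UC supermere.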
